A study of Homo sapiens with 3 samples.

Results

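The genes of the human mitochondrial ribosomal proteins were taken as the protein-coding genes, in GENCODE release 44 on GRCh37 (hg19), whose symbol is MRPL or MRPS followed by a number. They are 78 of 20090 protein-coding genes on chromosomes 1 to 22 and X. Chromatin came from MDA-MB-231, a cell line derived from a triple-negative breast cancer, after fixation in 1% formaldehyde for 10 min, and 4 µg of an antibody against BMAL1 or MAX was used for each precipitation before sequencing. There was 1 library for BMAL1, 1 for MAX and 1 of input chromatin, against which the authors called the peaks of both, so none of the values below has a replicate check, and no test was run. The BMAL1 list holds 756 peaks from 13866783 tags and the MAX list 13650 peaks from 11545865 tags. A gene was called bound when the summit of a listed peak lay within 1 kb of any of its annotated transcription start sites (TSSs), and a gene without a listed peak is one at which none passed the peak caller's cutoff at this depth.

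Mitochondrial ribosomes translate the few proteins encoded by mitochondrial DNA, which are subunits of the respiratory chain and ATP synthase. Their RNA is mitochondrial, while all of their proteins are encoded in the nucleus, made in the cytosol and imported. Some of these proteins have counterparts in bacterial ribosomes and others are found only in mitochondria. MAX is the obligate partner of MYC, a known activator of ribosome biogenesis and mitochondrial genes, and also pairs with MXD, MNT and MGA proteins. BMAL1 is the clock protein that pairs with CLOCK. Both kinds of dimer bind the E-box CACGTG, and clock genes can also carry the related E'-box CACGTT, which reads AACGTG on the other strand.

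MAX peaks were found at most mitochondrial ribosomal protein genes. Of the 78 genes, 54 had a MAX summit within 1 kb, a share of 69.2% with a 95% Wilson interval from 58.3% to 78.4%, against 36.4% of all protein-coding genes. These intervals, and those given for fold enrichments below, cover counting error only. BMAL1 peaks were rare. Only MRPL36 and MRPL43 had a BMAL1 summit within 1 kb, which is 2 of 78 genes or 2.56% (interval 0.706% to 8.88%), against 1.85% of all protein-coding genes. Both were also bound by MAX, so that 2 of the 54 MAX-bound genes, 3.7% (interval 1.02% to 12.5%), carried a BMAL1 peak, against 4.86% of all MAX-bound genes. Both intervals include the share of the background. For the other 76 genes, the closest BMAL1 summit lay 8572 bp away, at MRPL12.

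The sites with an E-box at the MAX summit are shown first, because they are the exception in this family. CACGTG occurred within 100 bp of the summit of the strongest MAX peak at 6 of the 54 bound genes, 11.1% (interval 5.19% to 22.2%), against 20.9% of all bound protein-coding genes, which lies within that interval. The 6 genes were MRPL3, MRPL15, MRPL34, MRPL36, MRPL45 and MRPS36. The sequence around it is given for 5 of them, 5′ to 3′ on the strand of the gene and read from GRCh37, with the E-box in capitals. MRPL36 is one of the genes with a BMAL1 peak, and the other, MRPL43, had no CACGTG but an E'-box at the summit, given last with its capitals marking AACGTG.
MRPL3, chr3:131221732-131221761, minus strand: ggctactgcgtcCACGTGgcggtggcgtgg
MRPL34, chr19:17414249-17414278, plus strand: agtaggcggagcCACGTGccgacgggcggg
MRPL36, chr5:1799990-1800019, minus strand: acgtgggcacgcCACGTGaccccccccccc
MRPL45, chr17:36452989-36453018, plus strand: cactcccgcgagCACGTGcgcgtcctcgct
MRPS36, chr5:68513434-68513493, plus strand: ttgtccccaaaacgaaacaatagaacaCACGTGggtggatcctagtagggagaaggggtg
MRPL43, chr10:102747326-102747355, minus strand: cacttcgccggcAACGTGagtctcccgcac

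The E-box of MRPL3 lay 9 bp from the MAX summit and 34 bp downstream of a TSS, within an annotated exon. That of MRPL15, whose sequence is not printed, also lay 9 bp from the summit, and 9 bp upstream of the canonical TSS. The MAX peak of MRPL15 held 2 E-boxes in its full length. The E-box of MRPL45 lay 51 bp from the summit and 15 bp downstream of a TSS. At MRPS36 it lay 66 bp from the summit and 123 bp upstream of the canonical TSS, outside annotated exons. MRPL34 differed from the others in position, since its E-box was 588 bp downstream of the nearest TSS, in an intron of a longer transcript. The E-box lay 2417 bp upstream of the canonical TSS. Its peak also lay within 1 kb of a TSS of ABHD8, a gene on the opposite strand. With the canonical TSS alone, MRPL34 was not bound.

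MRPL36, a large subunit protein with a bacterial counterpart, carried the stronger of the BMAL1 peaks. Its BMAL1 peak (chr5:1799881-1800180) had a fold enrichment of 9.56 over the local input background, with an exact Poisson 95% interval from 5.76 to 14.9, from a pileup of 19 fragments. The MAX peak that contains it (chr5:1799777-1800194) had a fold enrichment of 10.15 (6.2 to 15.7) from 20 fragments. The summits were 85 bp apart, and the E-box printed above lay between them, at 26 bp from that of BMAL1 and 59 bp from that of MAX. Another MAX peak (chr5:1801363-1801767), of 8.8-fold enrichment, was centered 74 bp upstream of a more distant TSS of the gene. MRPL36 is transcribed divergently from NDUFS6, which encodes a subunit of respiratory complex I. No other protein-coding gene had a TSS within 1 kb of the strongest MAX summit of MRPL36.

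MRPL43 encodes a large subunit protein found only in mitochondria. Its BMAL1 peak (chr10:102747159-102747519) had a fold enrichment of 6.34 (3.92 to 9.69) from 21 fragments, and only 8.86% of the BMAL1 list had a lower value. All 361 bp of it lay inside the MAX peak (chr10:102747065-102747836), whose fold enrichment was 9.52 (6.27 to 13.9) from 27 fragments. The summits were 37 bp apart, with the E'-box between them, at 17 bp from that of BMAL1 and 20 bp from that of MAX. The gene shares this promoter with TWNK, the helicase that replicates mitochondrial DNA. The BMAL1 intervals of MRPL36 and MRPL43 overlapped, and so did their MAX intervals.

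The MAX peaks of the family were mostly of middle strength within the MAX list. The fold enrichment of the strongest peak of each bound gene had a median of 9.52, with quartiles of 8.29 and 11.5 and a range from 4.13 to 26.6. The median over all 7308 bound protein-coding genes was 10.8, and over the whole MAX list 9.73. Values under 10 were found at 30 of the 54 genes, values from 10 to 15 at 19 and values of at least 15 at 5. The top 25% of the MAX list by fold enrichment included the peaks of 10 of the 54 genes, 18.5% (interval 10.4% to 30.8%), against 34.5% of all bound genes. The measure matters here. The pileup, which counts the fragments at the summit, had the same median of 19 at the mitochondrial ribosomal protein genes and at all bound genes, while the median local background was 1.97 and 1.75 fragments. MRPL15 and MRPL24 show what this does, with nearly equal pileups of 39 and 38 fragments and local backgrounds of 4.33 and 1.43, which give fold enrichments of 9.0 and 26.6.

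**Figure D1:**
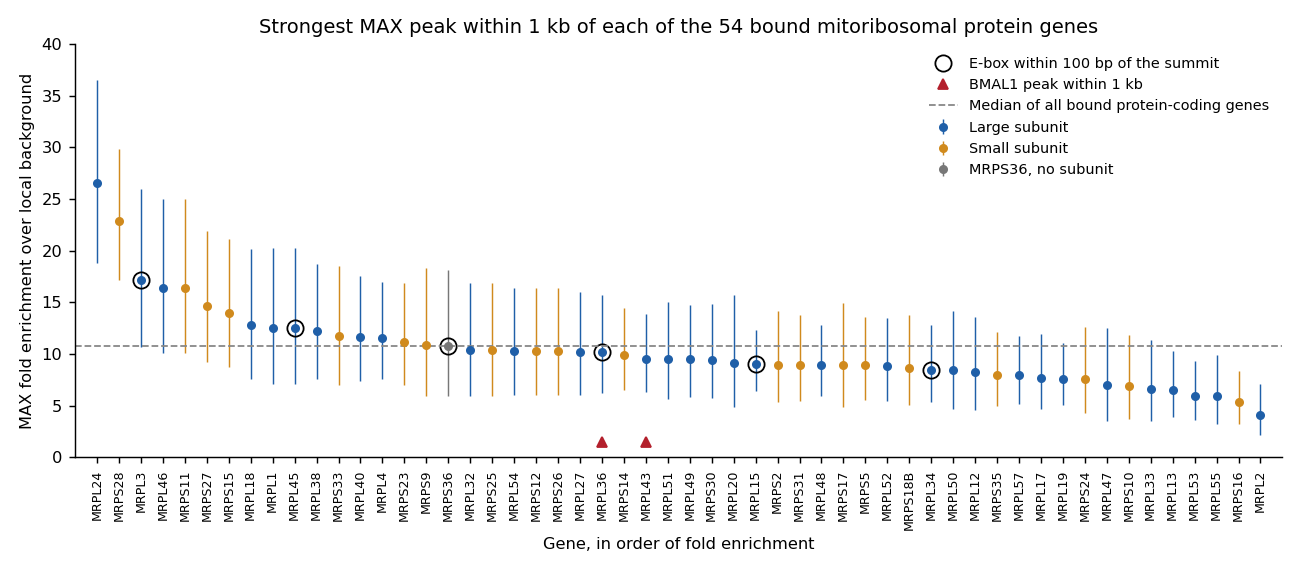
Fold enrichment of the strongest MAX peak within 1 kb of a TSS (y axis, linear scale) for each of the 54 bound genes in descending order (x axis), with exact Poisson 95% intervals of the pileup divided by the local background as vertical lines. MRPL24 and MRPS28 lie highest, with intervals above the dashed median of all bound protein-coding genes at 10.8. The 6 circled genes with an E-box at the summit are spread from 17.15 at MRPL3 to 8.46 at MRPL34, and triangles mark the 2 genes with a BMAL1 peak.

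MRPL24, a large subunit protein with a bacterial counterpart, had the highest value. Its peak (chr1:156710611-156711241) reached a fold enrichment of 26.6 (18.8 to 36.5), higher than 99.1% of the MAX list. It was centered 65 bp upstream of a TSS and had no E-box in the summit window. MRPS28 of the small subunit followed with 22.9 (17.2 to 29.8) from 54 fragments, the tallest pileup of the family. MRPL3, which lies near the catalytic center of the large subunit, had 17.15 (10.7 to 26.0). MRPL46 and MRPS11 are transcribed divergently and share a single peak (chr15:89010309-89010997) of 16.37 (10.1 to 25), the only pair of members with a common strongest peak, so the 54 genes rest on 53 peaks. The rest of the 10 highest were MRPS27 with 14.6, MRPS15 with 13.96, MRPL18 with 12.8 and MRPL1 and MRPL45 with 12.47 each. MRPL1 is the counterpart of the bacterial protein of the mobile stalk where used tRNAs leave, and MRPL45 holds the ribosome to the inner membrane at the exit tunnel. Most of this order is not resolved. Of the other 53 genes, 9 had an interval that reached that of MRPL24 and 44 an interval entirely below it.

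The lowest values belonged to MRPL55 with 5.92 (3.24 to 9.93), MRPS16 with 5.36 (3.23 to 8.37) and MRPL2 with 4.13 (2.2 to 7.06). MRPL2 lies near the catalytic center too, and its peak rested on 13 fragments over a local background of 3.15. Only 0.256% of the MAX list had a lower fold enrichment than this peak. At a p-value of 1e-08 or less, the threshold named in the study's methods, MRPL2 and MRPL55 were no longer bound, nor were MRPL33, MRPL47 and MRPS10, while MRPS16 was.

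Several MAX summits were found at 8 of the 54 bound genes, 14.8% (interval 7.7% to 26.6%), against 16.4% of all bound genes. MRPS27 and MRPS2 had 3 each, and MRPL18, MRPL36, MRPL51, MRPL54, MRPS26 and MRPS30 more than 1. At MRPS27, a pentatricopeptide repeat protein of the small subunit, the highest peak with 14.6 lay inside the gene, 11681 bp from the canonical TSS and 134 bp upstream of an alternative TSS. The peak at its canonical promoter had 13.54 (8.68 to 20.1), with its summit 35 bp from a TSS in coding sequence, and the third, with 10.15, held an E-box 56 bp from its summit. The order of the 3 peaks is within counting error. At MRPS2, the small subunit counterpart of a bacterial protein, the values were 8.96, 8.46 and 7.3, and the weakest of them held the only E-box, 52 bp from its summit. MRPL18 likewise had an E-box 5 bp from the summit of the weaker of its peaks (10.15) and none at the stronger (12.8), where the divergent gene is TCP1. These 3 genes are not among the 6 counted above, since the count used the strongest peak of each gene.

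The summits lay close to the TSS. Of the 54 strongest summits, 39 were within 100 bp of a TSS, 72.2% (interval 59.1% to 82.4%), against 46.0% of all bound protein-coding genes. The median distance was 55 bp at the mitochondrial ribosomal protein genes and 118 bp at all bound genes. The number of annotated TSSs affects how near a summit can be. Its median was 5 in the 78 genes, in the 54 bound ones and in all protein-coding genes. The quartiles were 3 and 7.75 for the 78 genes and 2 and 10 for all protein-coding genes. The number was not summarized for all bound genes, to which the distances refer. Upstream summits made up 63.0% here and 62.7% among all bound genes. In terms of annotation, 24 summits were upstream of the gene, 15 in untranslated exons, 9 in coding sequence and 6 in introns. The same was not counted for all bound genes, so these numbers have no background beside them.

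**Figure D2:**
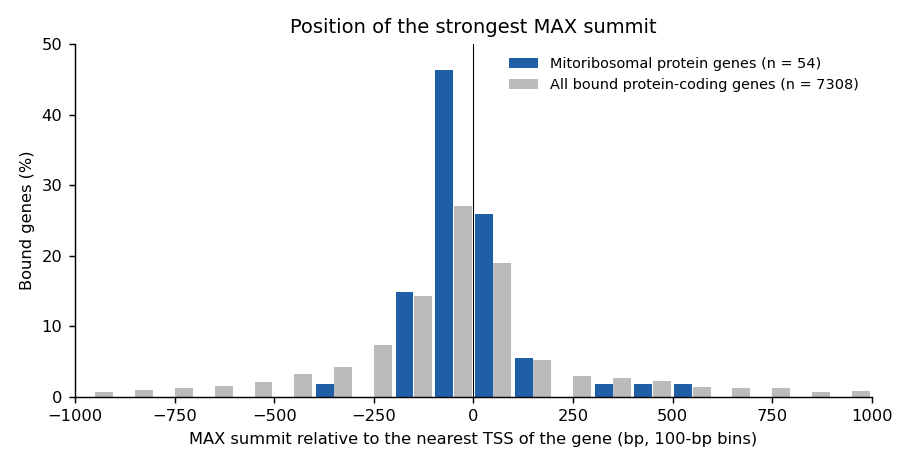
Position of the strongest MAX summit relative to the nearest TSS (x axis, 100-bp bins, negative values upstream) as a percentage of bound genes (y axis), for the 54 mitochondrial ribosomal protein genes in blue and all 7308 bound protein-coding genes in gray. The bins on either side of the TSS hold 46.3% and 25.9% of the blue summits and 27% and 18.9% of the gray ones.

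Only 4 summits were over 300 bp away by strongest peak, at MRPL34, MRPL53, MRPL57 and MRPS26. The 1 kb limit had little influence on the family. The bound genes nearest to the limit were MRPL34, with its closest summit at 549 bp, and MRPL57 at 352 bp, with fold enrichments of 8.46 and 7.93. The nearest genes beyond it were MRPL41, with a summit at 1513 bp and a fold enrichment of 9.84, and MRPL22, with one at 3303 bp and 11.63. No gene of the family had its closest MAX summit between 549 and 1513 bp.

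The 24 genes without a MAX summit within 1 kb were MRPL9, MRPL10, MRPL11, MRPL14, MRPL16, MRPL21, MRPL22, MRPL23, MRPL28, MRPL30, MRPL35, MRPL37, MRPL39, MRPL41, MRPL42, MRPL44, MRPL58, MRPS6, MRPS7, MRPS18A, MRPS18C, MRPS21, MRPS22 and MRPS34. Most of them had no MAX peak in the neighborhood either. The nearest MAX summit was more than 10 kb away at 19 of the 24 and more than 50 kb away at 9, with a median of 26200 bp. MRPL37 was the most isolated, with its closest summit 130540 bp away. CpG-rich promoters were found at 20 of these 24 genes, and their median CpG ratio of 0.75 was near the 0.772 of the bound genes. Neither the distances nor the CpG-rich share were counted for all unbound protein-coding genes. Whether they are particular to this family thus cannot be told.

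The bound and unbound genes were spread over both ribosomal subunits. Of the 51 large subunit genes, 33 were bound, 64.7% (interval 51.0% to 76.4%), and of the 26 small subunit genes 20, 76.9% (interval 57.9% to 89.0%). MRPS30 and MRPS18A were counted with the large subunit, where their proteins are found in the assembled ribosome. The median fold enrichment was 9.46 for the large and 10.1 for the small subunit, with broadly overlapping ranges. Genes with a bacterial counterpart were bound in 31 of 46 cases (67.4%) and those found only in mitochondria in 22 of 31 (71.0%). All of these intervals overlapped. By strongest peak, an E-box was at the summit of 5 of 33 bound large subunit genes and 0 of 20 bound small subunit genes. The share of all bound protein-coding genes was 20.9%, and these counts are small. Weaker peaks with an E-box were found at MRPS2 and MRPS27 of the small subunit and at MRPL18 of the large subunit. MRPS2 and MRPS27 have divergent neighbors too, PIERCE1 and PTCD2. The summits of these weaker peaks lay 822 bp and 355 bp upstream of the canonical TSS of MRPS2 and MRPS27. Position alone may thus not assign them to the small subunit genes. The remaining gene, MRPS36, carries the name of a ribosomal protein but encodes a subunit of the oxoglutarate dehydrogenase complex. It was bound, with a fold enrichment of 10.77 and an E-box, and leaving it out gives 53 of 77 genes or 68.8%.

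Other genes of mitochondrial translation, from lists made from textbook roles, were bound as follows, beside the 36.4% of all protein-coding genes. Of 5 subunits with other symbols 3 were bound, with an interval (23.1% to 88.2%) that includes the share of all genes, led by GADD45GIP1 with 7.93 and DAP3, a GTP-binding protein of the small subunit, with 7.69. Of 16 translation factors 9 were bound (56.2%, interval 33.2% to 76.9%), led by the elongation factor GUF1 with 17.93 (11.4 to 26.9) and the release factor MTRF1L with 14.6. Of 25 assembly and rRNA modification genes 19 were bound (76.0%, interval 56.6% to 88.5%). The highest of all was RPUSD4, a pseudouridine synthase of mitochondrial rRNA, with a fold enrichment of 39.49 (29.8 to 51.3) and 3 E-boxes within 100 bp of the summit. The rRNA methyltransferase MRM3 followed with 22.36 and no E-box. The share of all genes lies within the interval of the translation factors and below that of the assembly genes. No gene of the 3 lists had a BMAL1 peak within 1 kb.

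Promoters of this family were mostly CpG-rich, a class in which MAX peaks were more frequent genome-wide. Of the 78 promoters, taken as the 500 bp on either side of the canonical TSS, 71 had a ratio of observed to expected CpG of at least 0.6, 91.0% against 65.9% of all genes. Within that class 51 of 71 were bound, 71.8% (interval 60.5% to 81.0%), against 49.6% of all CpG-rich genes, so the gap was narrower than the 69.2% against 36.4% found without this restriction. Of the 7 CpG-poor genes, 3 were bound, 42.9% (interval 15.8% to 75%), against 10.9% of all CpG-poor genes. The GC content was not higher here, with a median of 57.2% against 61.2% in all genes.

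Divergent promoters were also common. They were defined by strand and distance alone, so starts of genes that overlap count as divergent too. At 33 of the 78 genes, 42.3% (interval 32.0% to 53.4%), another protein-coding gene starts on the opposite strand within 1 kb, against 17.7% of all genes. Among these, 22 of 33 were bound, 66.7% (interval 49.6% to 80.2%), close to the 62.3% of all divergent genes. Among the genes without a divergent neighbor 32 of 45 were bound, 71.1% (interval 56.6% to 82.3%), against 30.8% of all such genes. The share of all divergent genes thus fell inside the interval of the family, while that of all other genes lay below it. At 21 of the 54 bound genes the strongest peak also lay within 1 kb of another protein-coding gene, 38.9% against 31.7% of all bound genes, and these peaks cannot be assigned to 1 gene by position.

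**Figure D3:**
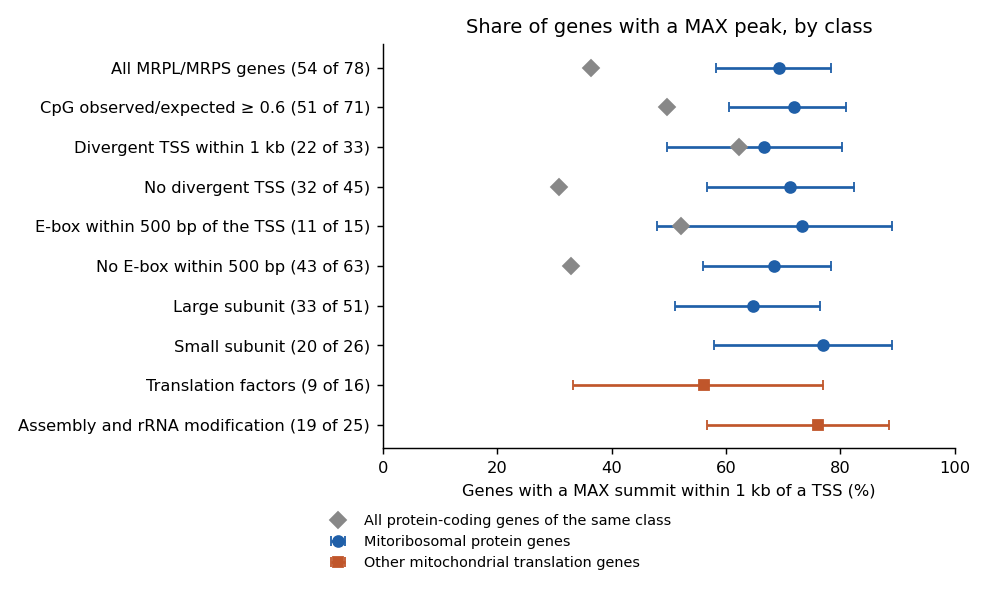
Percentage of genes with a MAX summit within 1 kb of a TSS (x axis, linear scale), with 95% Wilson intervals as horizontal lines, for the mitochondrial ribosomal protein genes by class (blue circles), other mitochondrial translation genes (orange squares) and all protein-coding genes of the same class where the class exists genome-wide (gray diamonds). The blue share is between 64.7% and 76.9% in the classes drawn, and the gray share falls inside the blue interval for divergent promoters, at 62.3%, and for promoters with an E-box, at 52.1%.

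The share of promoters with CACGTG was close to that of all genes, while the share with either CACGTG or an E'-box was higher. CACGTG was present within 500 bp of the canonical TSS at 15 of the 78 genes, 19.2% (interval 12% to 29.3%), against 18.2% of all genes. With E'-boxes counted as well, the number rose to 36 of 78 genes, 46.2%, against 32.1% of all genes. Of the 15 genes with CACGTG 11 were bound, 73.3% (interval 48.0% to 89.1%), against 52.1% of all genes with an E-box. Of the 63 genes without it 43 were bound, 68.3% (interval 56.0% to 78.4%), against 32.9%. Genome-wide the presence of an E-box thus went with a larger share of bound genes, while within this family the shares with and without it differed by less than their intervals. The 4 unbound genes with a promoter E-box were MRPL22, MRPL37, MRPS18A and MRPS18C, in which it lay between 167 and 315 bp upstream of the canonical TSS. Peaks with an E-box at the summit had a median fold enrichment of 10.5 against 9.48 without it in this family, and 13.4 against 10.2 among all bound genes.

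Other short elements were then counted in the same summit windows, on both strands. They were chosen as common elements of CpG-rich promoters, and a match to the letters of one may overlap a match to another. The YY1 letters AANATGGC were present at the summit of 13 of the 54 genes, 24.1% (interval 14.6% to 36.9%), against 6.05% of all bound genes. MRPL46 and MRPS11 are both among the 13 and share 1 peak, so the same site is counted for each. The ETS letters CCGGAAG were present at 12 of the 54 genes, 22.2% (interval 13.2% to 34.9%), against 13.7%, which lies within the interval. The other elements had shares closer to those of all bound genes. These were CACGCG (20.4% and 19.7%), the E'-box (5.56% and 6.44%), the NRF1 element (5.56% and 6.35%), the GC box GGGCGG (51.9% and 52.2%) and CCAAT (22.2% and 24.0%). A further E-box variant, CATGTG, was found at 7.41% and 8.13%. At 35 of the 54 summits there was neither an E-box nor an E'-box nor CACGCG, 64.8% against 58.4% of all bound genes. The median fold enrichment was 9.52 with the YY1 letters and 9.51 without.

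The same elements were counted within 100 bp of the canonical TSS, which does not depend on the peaks. The YY1 letters were present at 28 of the 78 promoters, 35.9% against 7.03% of all genes, and the ETS letters also at 28, against 11.2%. Among all CpG-rich genes these shares were 8.92% and 15%. Both were found at unbound as well as bound members, with 7 of 24 (29.2%) and 21 of 54 (38.9%) for YY1 and 9 of 24 (37.5%) and 19 of 54 (35.2%) for ETS. E'-boxes were found at 8 of 78, 10.3% against 3.18%, and CACGTG at 3 of 78, 3.85% against 5.66%. CCAAT was less frequent, with 12.8% against 25.1%, and so was the GC box, with 47.4% against 53.2%. All CpG-rich genes had 24.6% for CCAAT and 70.3% for the GC box.

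**Figure D4:**
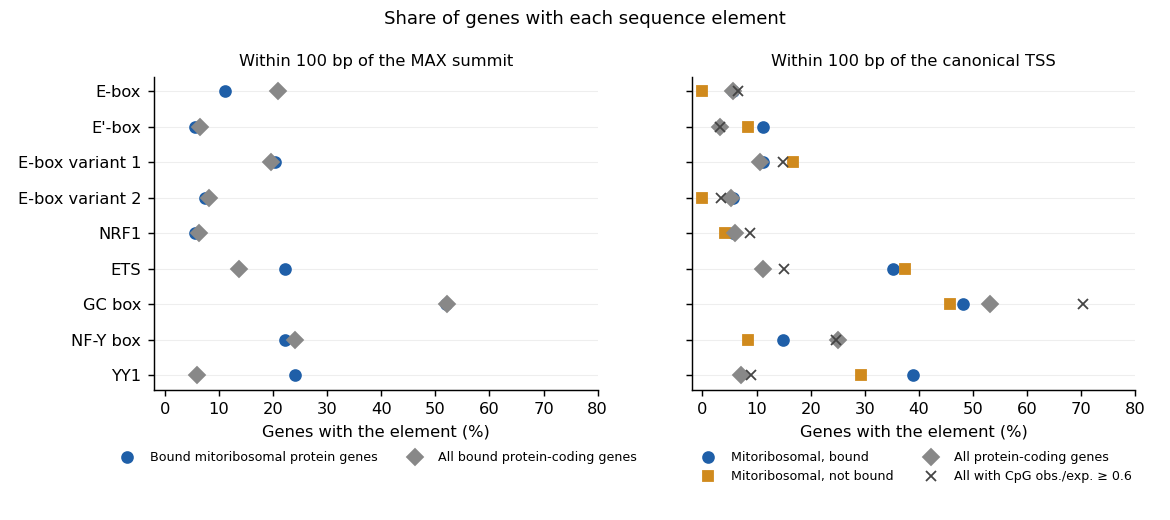
Percentage of genes with each element (x axes, linear scale) in the 200 bp centered on the strongest MAX summit (left) and on the canonical TSS (right), where E-box variants 1 and 2 are CACGCG and CATGTG and the NF-Y box is CCAAT. The YY1 and ETS points of the mitochondrial ribosomal protein genes lie to the right of those of all genes in both panels, and in the right panel bound and unbound members lie close together, at 38.9% and 29.2% for YY1 and 35.2% and 37.5% for ETS.

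The YY1 letters contain ATG, and most of these matches were the start codon itself. Of the 28 promoters with them, 26 (92.9%) had them on the strand of the gene, and at 20 (71.4%) the ATG was an annotated start codon of the gene. Among all 1413 genes with these letters, 67.3% had them on the strand of the gene, and at 582, 41.2%, the ATG was a start codon. A start codon within these letters was thus found at 25.6% of the mitochondrial ribosomal protein genes and at 2.9% of all genes, and the letters without a start codon at 10.3% and 4.14%. The sites are shown for 4 of the 13 bound genes with these letters at the MAX summit, so that the letters can be seen beside the start codon, with the YY1 letters in capitals, on the strand of the gene. At MRPL46, MRPL32 and MRPS14 the capitals hold the annotated start codon, while at MRPL36 the letters run on the opposite strand and hold no start codon.
MRPL46, chr15:89010593-89010622, minus strand: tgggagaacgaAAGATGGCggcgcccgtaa
MRPL32, chr7:42971972-42972001, plus strand: ttccagcagggAAAATGGCgctggccatgc
MRPL36, chr5:1799968-1799997, minus strand: ccccccccgccGCCATCTTccttcctggca
MRPS14, chr1:174992529-174992558, minus strand: ttgtagcggacAACATGGCggccttcatgc

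The capitals began close to the TSS in each, with their centers 11 bp downstream of a TSS at MRPL46, 12 bp at MRPL32, 26 bp at MRPL36 and 7 bp at MRPS14. The distance to the MAX summit was 62 bp, 50 bp, 81 bp and 11 bp. MRPL3, with 1 of the E-boxes printed above, held the ETS letters on both sides of it, and these sites are shown because MRPL3 is the only one of the 10 genes with the highest fold enrichment that has them at the summit, with CCGGAAG in capitals.
MRPL3, chr3:131221684-131221712, minus strand: cggcagggcgcCCGGAAGtcgtgagtcga
MRPL3, chr3:131221830-131221858, minus strand: tgtaaaacgcaCCGGAAGtgggtccggcg

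They lay 58 bp and 88 bp from the MAX summit, on opposite sides of it, while the E-box was 9 bp away. A match to these letters says nothing about which protein was present, since YY1, ETS and NRF1 factors were not measured here.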

How the data were processed

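Single reads were aligned to hg19 with BWA 0.6.2, and the authors called peaks with MACS2 2.0.9 through HTS-flow, separately for each antibody against the same input library of 29308882 tags. All listed peaks were used, for which the cutoff on p is 1e-05 by the headers and 1e-08 by the methods. Tags were extended to 300 bp, with at most 2 tags per position for BMAL1 and 1 for MAX. Per the file headers, the deposited pileup is a coverage signal, the height of extended fragments at the summit. The deposited fold enrichment is the ratio of pileup to local background. That background follows the input except where it lies at the genome-wide level, which is 1.28 fragments for MAX and its lowest value. The strongest peak had this level at 6 of the 54 bound genes, 11.1% (interval 5.19% to 22.2%), against 17.8% of all bound genes. Among the 10 highest fold enrichments, those of MRPL1, MRPL3, MRPL45, MRPL46 and MRPS11 were taken over it. The deposited -log10 p-values and -log10 q-values come from the authors' peak caller.

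Peaks were assigned by summit to the TSSs of 20090 protein-coding genes (8 repeats of a symbol were left out), and the peak with the highest fold enrichment stood for a gene. A gene without a canonical transcript (278 genes) was given its most upstream coding TSS. Shares carry Wilson 95% intervals. Fold enrichments carry exact Poisson intervals of the pileup, with the background taken as known. Elements were searched on both strands of 200-bp windows. No test was run, since each antibody had 1 library. The steps were tested on simulated peaks.

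The members, gene lists and alternatives were chosen with earlier results of these data known, and the list of short elements and the start codon count were added after the data were seen. Genes were named when they had a BMAL1 peak, more than 1 MAX peak, one of the 10 highest or 3 lowest fold enrichments, or 1 of the 2 summits nearest to the 1 kb limit on either side. Genes named for an E-box, for the other distances or for the YY1 letters fall outside that rule. Sequences are those of GRCh37. The RNA data were not used here. Software was matplotlib 3.10.9, pysam 0.24.0, scipy 1.17.1, pandas 2.3.3 and numpy 2.4.6 under Python 3.11.15.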

Additional observations from a re-analysis of the deposited data

How the results depend on the processing

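The share of mitochondrial ribosomal protein genes with a MAX peak stayed within its interval under every alternative run for it except 1. At a p-value of 1e-12 or less it was 48.7%, with 23.5% of all genes. It was 62.8% and 34.1% at 1e-08, and 67.9% and 33.9% when 1 bp of a peak within 300 bp of a TSS sufficed, which is the rule of the study's methods. The median fold enrichment of bound members was 0.882 of that of all bound genes, and 0.809 at 1e-12. With pileup in its place the ratio was 1.0, and with -log10 p it was 0.949. The lower median was thus not seen in pileup, whose quartiles were 16 and 22 at bound members and 15 and 25 at all bound genes. The share of promoters with an E-box was 30.8% within 1 kb of the canonical TSS (all genes 29.2%) and 46.2% when E'-boxes were counted as well (all genes 32.1%). The share of bound members with an E-box at the summit ranged from 5.56% in 100-bp windows to 16.7% with E'-boxes, always below that of all bound genes. The BMAL1 share fell to 1 gene, MRPL36, at 1e-12. No paired analysis was possible because each antibody had 1 library, and no library could be left out for the same reason. The lowest pileup in the list was 9 fragments for MAX and 12 for BMAL1, although the BMAL1 library held more tags. The lowest -log10 p of the authors' peak caller was 5.01 for MAX and 6.34 for BMAL1, while both headers give a cutoff of 1e-05. The weakest listed BMAL1 peaks were thus further above that cutoff than those of MAX.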
